A study of Mus musculus with 12 samples.

Results

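Cluster 9 of this snRNAseq series holds nuclei named Early PN, or early projection neurons, in the authors' annotation. Its members were all nuclei deposited under that cluster number, which came to 2457 of 50550 nuclei (4.86%), and their counts were summed per embryo. The nuclei came from cortices of C57BL/6J mouse embryos at embryonic day 14, 5 from dams injected with saline and 6 from dams injected with EtOH. EtOH was given at 2.5 g/kg as a 25% (v/v) solution in saline, in 6 daily injections, and saline dams received the vehicle alone. Saline embryos S1-1 and S1-2 came from dam S1, and S2-1, S2-2 and S2-4 from dam S2. EtOH embryos E1-1 and E1-2 came from dam E1, and E2-1 to E2-4 from dam E2. Dams S1 and E1 formed batch 1 and dams S2 and E2 batch 2 in the labels. With 2 dams per treatment, the main tests took littermates as independent samples, and differences between dams are not in the p-values of those tests.

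Projection neurons are the glutamatergic neurons of the cortex that send axons to other cortical areas or to targets below the cortex. They are born from radial glia, mostly by way of intermediate progenitors in the subventricular zone. Newborn projection neurons pass through a multipolar stage in the subventricular and intermediate zones before they migrate along radial glia into the cortical plate. Unc5d, a netrin receptor gene, marks this stage, Neurod2 encodes a bHLH factor of postmitotic glutamatergic neurons, and Mfap4, which encodes a microfibril-associated protein, is used as an intermediate progenitor marker.

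The embryos supplied 398, 243, 179, 200 and 419 Cluster 9 nuclei (saline, in the order S1-1, S1-2, S2-1, S2-2, S2-4, which is kept for all saline values) and between 120 and 257 nuclei (EtOH). UMIs per nucleus, the count of distinct RNA molecules, ran from 892 to 36036 with a median of 5566, which ranked 22 among the 25 clusters from the highest. Summed Cluster 9 UMIs per embryo ran from 532801 to 3405854, and a gene's level is given as CPM, the plain CPM of the embryo's summed Cluster 9 UMIs (counts scaled to 1 common total). Saline embryo S2-4 stood apart from the other 4 saline embryos. On the first principal component of log2 expression, which carried 31.4% of the variance, S2-4 lay at 11.2, the other saline embryos between -36.2 and -22.2, and the EtOH embryos between 13.7 and 20.6. The mean correlation of S2-4 across genes was 0.955 with the other saline embryos and 0.966 with the EtOH embryos, so counts of called genes are given with and without it. Since S2-4 was singled out for its likeness to the EtOH embryos in these counts, leaving it out was apt to widen the contrast. Calls and p-values without it are therefore not independent support. Of the barcodes, 314 of 50226 occurred in more than 1 library, 26 of them on a Cluster 9 nucleus, and none was in Cluster 9 of more than 1 library.

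The name of the cluster was checked against its markers in all 25 clusters, as a description, since the clusters were made from these genes. Unc5d reached 9153 ± 1649 CPM (SD, n = 11 embryos) in Cluster 9, its highest level of all clusters and 2.34 times that of the next, Cluster 6 (non-mitotic intermediate progenitors, 3915 ± 907 CPM). Neurod2 was also at its highest in Cluster 9, at 294 ± 85.5 CPM, against 252 ± 75.3 CPM in Cluster 1 (callosal projection neurons), and these neighbours differed by less than their spread over embryos. Mfap4, at 35.7 ± 9.10 CPM, ranked 3 behind Cluster 6 (78.5 ± 10.6 CPM) and Cluster 17 (mitotic intermediate progenitors, 41.8 ± 9.52 CPM), ahead of Cluster 10 (late interneuron precursors) at 11.5 ± 2.69 CPM. All 3 markers were present, and Unc5d was the one whose level in Cluster 9 exceeded the next cluster by more than the spread.

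**Figure D1:**
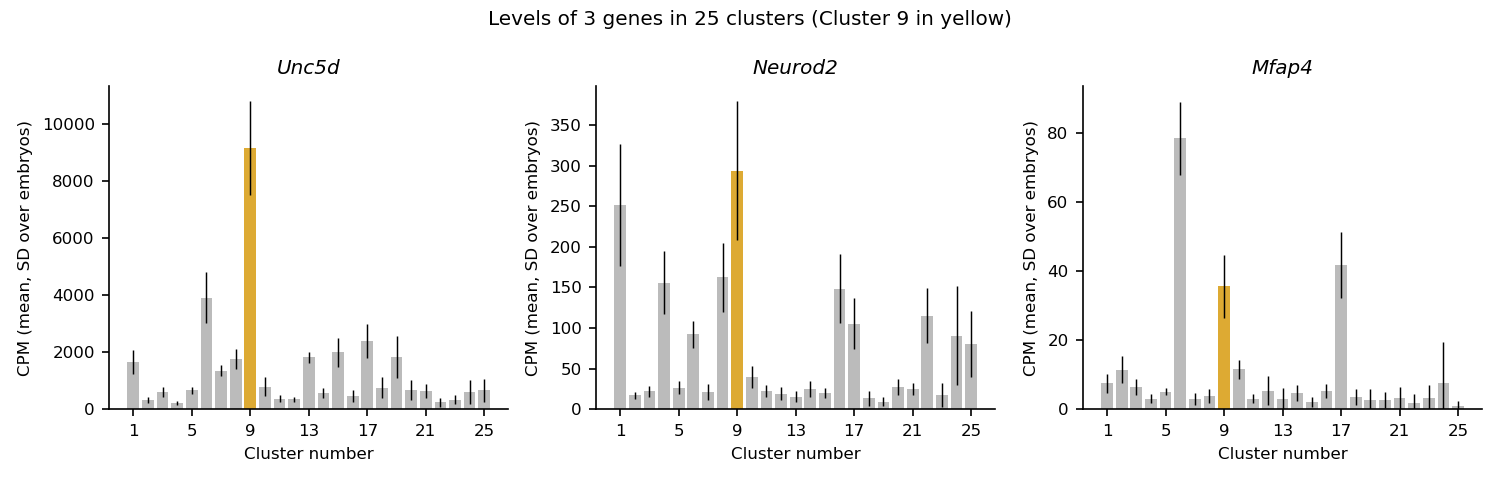
Mean CPM of Unc5d, Neurod2 and Mfap4 (vertical axes) in each of the 25 clusters (horizontal axes), with bars for the mean over embryos and lines for the SD. Cluster 9, in yellow, is the tallest bar for Unc5d (9153 CPM) and Neurod2 (294 CPM), and lower than Clusters 6 and 17 for Mfap4.

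Of the 20 genes the study lists first for this cluster, 17 were at their highest in Cluster 9. These were chosen by the study on these nuclei and are not independent evidence. They include many receptors for guidance cues. Nrp1, a semaphorin co-receptor, reached 1726 ± 301 CPM, 2.07 times the next cluster. Its partner in semaphorin reception Plxna4 reached 5452 ± 412 CPM, 1.23 times the next cluster. Robo2, a Slit receptor, stood at 8880 ± 862 CPM (1.28 times) and Epha3, an ephrin receptor, at 5155 ± 266 CPM (1.497 times). Sema3c, which encodes a secreted semaphorin, was at 376 ± 61.8 CPM (1.46 times). Outside the guidance genes, the cadherin gene Cdh8 stood 1.74 times above the next cluster and Prex1, an activator of Rac GTPases, 1.58 times above it. Among the exceptions were, by small margins, Ccser1 (0.983 of Cluster 1) and Ndst3 (0.964 of Cluster 8). Slc17a6, a vesicular glutamate transporter gene, was close to Cluster 6, at 1.05 times its level, but 5.61 times that of Cluster 1. Over all genes with a mean of at least 20 CPM in Cluster 9, 6 or 1, 293 were at their highest in Cluster 9, led by Adamtsl3 at 159 ± 33.1 CPM (2.46 times the next cluster) and Chst9, a sulfotransferase gene, at 52.0 ± 18.9 CPM (2.40 times). These last 2 genes were chosen after their values were seen.

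**Figure D2:**
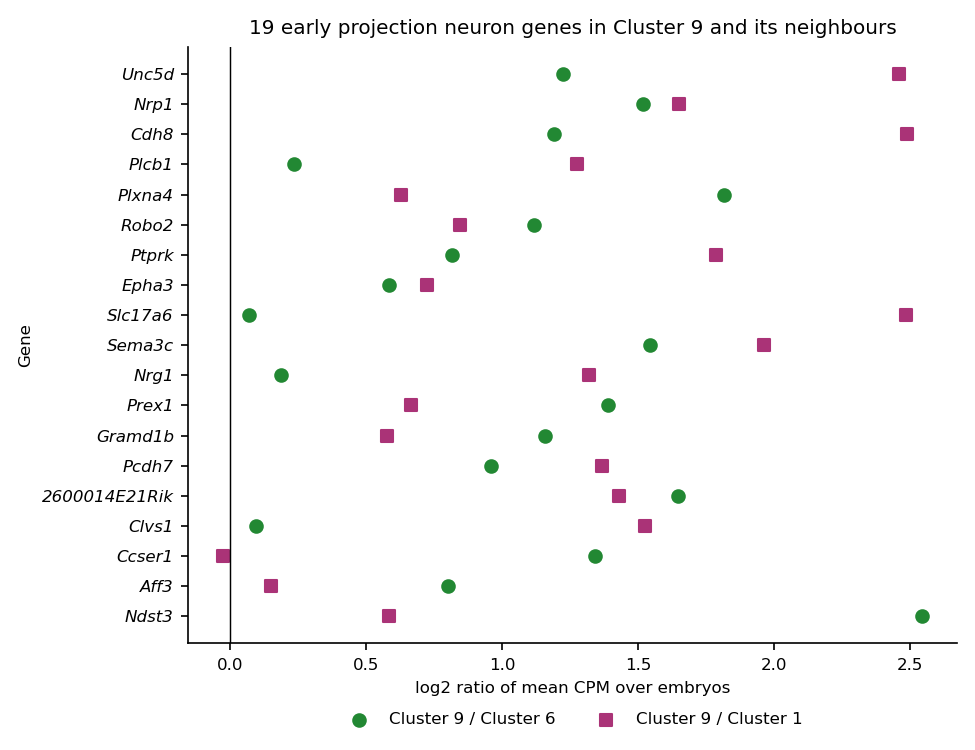
Log2 ratio of the mean CPM over 11 embryos in Cluster 9 to that in Cluster 6 (green circles) and in Cluster 1 (purple squares) for 19 of the 20 genes the study lists first for Cluster 9. All 19 circles lie above 0, and among the squares Ccser1 (0.983 of Cluster 1) lies just below it.

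Nuclei were thinned to 2000 UMIs to compare the share with at least 1 UMI of a gene at 1 depth, which left 2442 Cluster 9 nuclei (15 were shallower, 4 saline and 11 EtOH). The interneuron Cluster 7, with a median of 9387 UMIs per nucleus before thinning, gave the background for Neurod2 and Mfap4, whose levels there were 20.9 ± 9.54 and 3.07 ± 1.74 CPM (n = 11). Unc5d stood at 1352 ± 189 CPM in Cluster 7, above its 318 CPM in Cluster 2 for example, so its share in Cluster 7 is given for comparison and is not a background. Unc5d was found in 99.6% ± 0.50 of Cluster 9 nuclei (mean and SD over 11 embryos) and in 53.7% ± 5.57 of Cluster 7 nuclei. Neurod2 was found in 41.3% ± 10.1 against 3.87% ± 2.41, and Mfap4 in 7.13% ± 1.76 against 0.59% ± 0.55. In Clusters 6 and 1 the thinned shares were 69.6% and 64.6% for Unc5d, 16.6% and 39.4% for Neurod2, and 13.7% and 1.55% for Mfap4. The share of Neurod2 was thus close to that in Cluster 1, and the share of Mfap4 was below that in Cluster 6. Before thinning, the pooled shares in Cluster 9 were 99.9%, 72.9% and 18.2% for the 3 genes, against 78.7%, 12.6% and 2.31% in Cluster 7. Mfap4 was above its background, but few nuclei held a UMI of it at this depth.

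Factors of subcortical neurons and of intermediate progenitors were found in different shares of Cluster 9 nuclei. Bcl11b, a factor of subcerebral and inhibitory neurons, was found in 73.9% ± 6.70 of the thinned nuclei. Bcl11b was found in 33.2% of Cluster 7 nuclei, but interneurons express it too (345 ± 100.4 CPM), so this share is not a background. Fezf2, a determinant of subcerebral identity, was found in 5.06% ± 1.64 of nuclei, and Tbr1, a deep-layer factor, in 11.5% ± 3.08. The thinned shares of Bcl11b, Fezf2 and Tbr1 were 80.2%, 6.88% and 12.4% in Cluster 1, and 35.7%, 6.43% and 7.60% in Cluster 6. Eomes, the defining factor of intermediate progenitors, was found in 7.83% ± 3.10 of Cluster 9 nuclei, against 52.9% ± 3.24 in Cluster 6, 1.91% in Cluster 1 and 1.26% in Cluster 7. Before thinning the pooled shares in Cluster 9 were 91.2% for Bcl11b, 13.5% for Fezf2, 29.9% for Tbr1 and 19.6% for Eomes, and in Cluster 7 they were 58.5%, 3.95%, 8.94% and 5.16%.

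Cluster 9 lay between the intermediate progenitors and the callosal neurons for most genes that separate them. Across 7009 genes, its mean levels had a Spearman correlation of 0.930 with Cluster 1, 0.913 with Cluster 6 and 0.883 with Cluster 8, all from the same embryos, so genes and clusters are not independent here. Of 1189 genes whose means were 2-fold apart between Clusters 6 and 1, 991 (83.3%) had a level between them in Cluster 9. On a log2 scale from 0 at Cluster 6 to 1 at Cluster 1, the median position of these genes was 0.578. The 686 genes lower in Cluster 1 than in Cluster 6 had a median position of 0.660, and the 503 higher in Cluster 1 one of 0.418. The genes lower in Cluster 1 were thus nearer to their Cluster 1 level than the genes higher in it. Another 17 genes stood at least 2-fold above both neighbours, Unc5d, Nrp1, Sema3c, Cdh8, Cux2 (688 ± 101 CPM) and Chst9 among them, and 46 stood at least 2-fold below both. The median position per embryo ran from 0.496 to 0.574 in saline and from 0.538 to 0.612 in EtOH embryos, ranges that overlap.

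The share of nuclei in Cluster 9 was compared between treatments. It was 5.21, 4.82, 2.97, 4.51 and 5.81% in the saline embryos and 4.47 to 5.29% (median 5.16%) in the EtOH embryos. The ranges overlapped, and S2-1 was the lowest embryo. The means were 4.66% ± 1.06 (SD, n = 5) and 5.05% ± 0.30 (SD, n = 6), a difference of 0.38 percentage points (two-sided exact permutation test over 462 arrangements, p = 0.496, adjusted over 25 clusters p = 0.767, within batches p = 0.500). Leaving out S2-4 raised it to 0.67 points (exact permutation p = 0.0952), and leaving out S2-1 turned it to -0.038 points (exact permutation p = 0.914). As a share of projection neuron nuclei alone the direction turned, with 16.1% ± 0.80 (n = 5) and 14.1% ± 2.33 (n = 6), a difference of -2.06 points (exact permutation p = 0.0952). The number of Cluster 9 nuclei per Cluster 6 nucleus was 0.641 ± 0.061 (n = 5) and 0.652 ± 0.061 (n = 6, exact permutation p = 0.775). None of these differences in share or ratio passed the exact permutation test at 0.05.

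Nuclei of EtOH embryos held fewer UMIs, in Cluster 9 as in the libraries as a whole. Over all nuclei the median was 9051, 8678, 8369, 8365 and 6325 in the saline embryos and 4071.5 to 6911 in the EtOH embryos. In Cluster 9 the median per nucleus was 7754, 7434, 7064, 6487.5 and 5071 in the saline embryos and 3282 to 5368 (median 5005) in the EtOH embryos. The first 4 saline embryos lay above every EtOH embryo, and S2-4 lay among them. The means were 6762 ± 1056 (SD, n = 5) and 4745 ± 791 (SD, n = 6), a difference of -2017 UMIs (two-sided exact permutation test, p = 0.00649, within batches p = 0.0143), and -2439.54 without S2-4 (exact permutation p = 0.00476, the smallest these groups allow). The Cluster 9 median was 0.827 ± 0.037 (n = 5) and 0.778 ± 0.029 (n = 6) of the median over all nuclei (exact permutation p = 0.0433). After thinning to 2000 UMIs, the median number of genes per nucleus was 1151 ± 22.3 (n = 5) and 1140 ± 3.43 (n = 6, exact permutation p = 0.277). Depth moved with treatment in this way beside every gene result that follows, and fits on thinned nuclei and on embryos thinned to 1 total are given with the counts of calls.

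**Figure D3:**
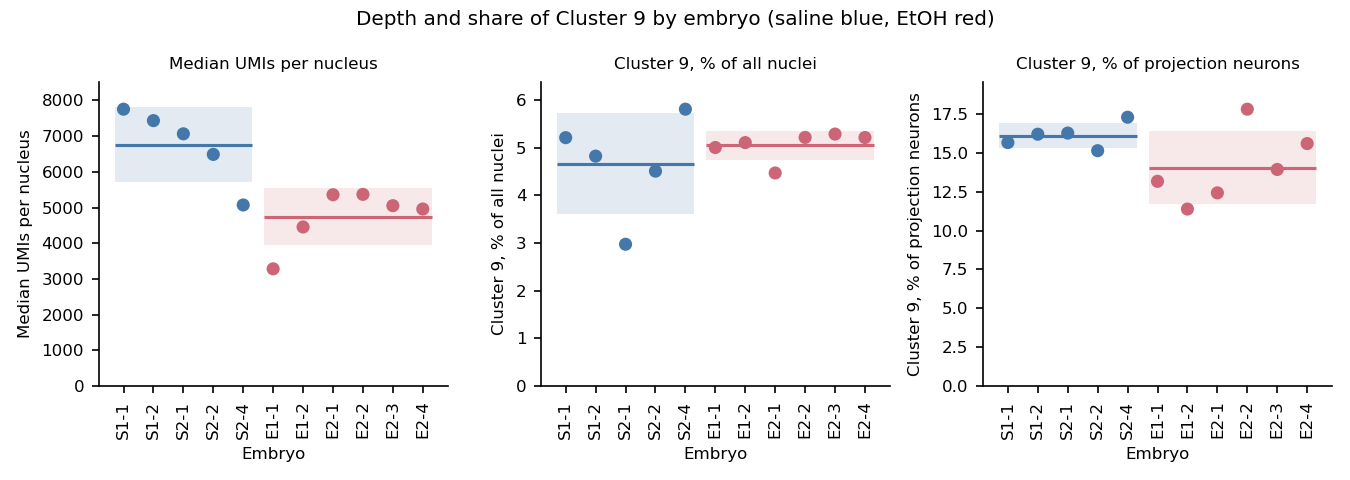
Median UMIs per Cluster 9 nucleus, Cluster 9 as a percentage of all nuclei and as a percentage of projection neuron nuclei (vertical axes, from 0) for each embryo (horizontal axes), with saline in blue and EtOH in red, lines for the group means and bands for the SD. S2-4, at 5071 UMIs, lies among the EtOH embryos in depth, while the shares of nuclei overlap between the treatments.

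Gene expression in early projection neurons was compared between treatments with edgeR on the summed counts, and calls needed an adjusted p under 0.05 with a rise of over 25% or a fall of over 20%. Of 9138 genes tested, 43 were higher (0.471%) and 73 lower (0.799%) after EtOH. A gene was tested if enough embryos passed a limit on low counts, about as many as the smaller group holds. A gene at low counts could thus be tested through 1 treatment alone, where it is high. Of those named below, Masp2, Plxna4os1 and 5430419D17Rik, for example, passed mainly through EtOH embryos. Eya4, Asic2 and Grik1 passed mainly through saline embryos. In Cluster 9, 64 of the 73 lower genes (87.7%) were below 50% of their highest cluster level, as were 4 of the 43 higher genes (9.30%) and 30.3% of all genes tested. The other lower genes included Neurod2, Ankrd10 (80.7%) and Ivns1abp (71.0%), the last 2 named after their values were seen. Fold changes among the higher genes ran from 1.29 to 3.24 (median 2.09) and the median of saline over EtOH among the lower genes was 1.85. At an unadjusted p under 0.05 there were 831 higher and 604 lower genes. With batch as a covariate 12 genes were higher and 33 lower, and 43 of the 116 genes were among them. Of the called genes named below, Neurod2, Gli3, Slc1a3, Pcdh15, Grik1, Grik2, Grin2b, Erbb4, Fgf12, Kif11, Diaph3, Akr1b3, Aldh1b1 and Dbn1 lost their call in that fit, with edgeR adjusted p-values of 0.0525 to 0.0777 and the same directions. In the batch 1 embryos alone 292 were higher and 179 lower, and in the batch 2 embryos alone edgeR called 0 in either direction, with 367 and 491 at an unadjusted p under 0.05. Each batch holds a single dam per treatment, so these fits took littermates as replicates and cannot tell treatment from dam. S2-4 is among the batch 2 embryos. Without S2-4, 700 of 8975 genes were higher (7.8%) and 526 lower (5.86%), and all 116 genes were among them, while leaving out any other embryo left 9 to 60 calls in all. S2-4 was the saline embryo nearest to or furthest into the EtOH side in 38 of the 43 higher and 62 of the 73 lower genes, against 39.4% of all genes tested. On nuclei thinned to 2000 UMIs, 25 genes were higher and 50 lower of 5577 tested, and 37 of the 116 genes were among them. On embryos thinned to 1 total, chosen after seeing the data, 56 were higher and 68 lower of 6554 tested, with 52 of the 116 genes among them.

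Of the 43 higher genes, 17 had saline and EtOH embryos that did not overlap (79 of all 9138 genes did so upward, 0.865%). Podxl2, which encodes the sialomucin endoglycan and lies at chr6:88842558-88875044 on the minus strand of GRCm38, had the smallest adjusted p. Saline embryos had 221, 232, 184, 224 and 310.4 CPM of Podxl2, and EtOH embryos 334 to 368 CPM (median 353). Every saline embryo lay below every EtOH embryo, with S2-4 the nearest. The log2 fold change of Podxl2 was 0.56 (SE 0.09, edgeR adjusted p = 0.0111). It was 1 of the 7 higher genes whose level was highest in Cluster 9 among all clusters, as were Akr1b3 and Dbn1 below. Leaving out any embryo kept its call. Tmem208 encodes a protein of the endoplasmic reticulum. The level of Tmem208 was 21.4, 22.3, 22.5, 13.98 and 31.9 CPM in saline and 36.2 to 58.2 CPM (median 43.8) in EtOH embryos. The groups were apart, and S2-4 was again the highest saline embryo. Tmem208 had a log2 fold change of 0.99 (SE 0.18, edgeR adjusted p = 0.0155). Masp2, a serine protease gene of the complement lectin pathway, is expressed mainly in liver and overlaps Tardbp on the other strand. For Masp2, the saline values were 2.94, 2.08, 2.91, 3.50 and 8.55 CPM, and the EtOH values ran from 11.01 to 13.8 CPM with a median of 13.2. The groups did not overlap, but Masp2 was at low counts and was tested mainly through the EtOH embryos, so this is not separate support. For Masp2 the log2 fold change came to 1.59 (SE 0.33, edgeR adjusted p = 0.0260).

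Only 26 of the 43 higher genes (60.5%) are annotated as protein-coding, against 93.9% of the genes tested, and 33 (76.7%) overlap a gene on the other strand, against 51.4%. The study counted reads with Cell Ranger at default settings and does not state the strand rule. Whether reads of the partner genes were counted for these genes was not tested. Plxna4os1 is an antisense transcript within Plxna4. Values of Plxna4os1 were 5.29, 3.12, 5.09, 5.59 and 9.45 CPM in saline embryos and lay between 11.3 and 18.6 CPM (median 14.5) in EtOH embryos. S2-4 was the highest saline embryo and below all EtOH embryos, but Plxna4os1 too was at low counts and tested mainly through the EtOH embryos. EdgeR gave Plxna4os1 a log2 fold change of 1.34 (SE 0.28, adjusted p = 0.0260). Plxna4 itself was not called, at a log2 fold change of 0.07 (SE 0.07, edgeR adjusted p = 0.613). Of the 10 higher genes with the smallest adjusted p, 6 more were non-coding or named only by a clone or model number. Gm26694, a lincRNA that overlaps several genes, had a log2 fold change of 0.86 (SE 0.15) and Gm10701, antisense to Dpy19l1, one of 1.01 (SE 0.20). Gm26909 had 1.34 (SE 0.27), Gm26542 had 0.96 (SE 0.19), 5430419D17Rik had 1.70 (SE 0.36) and Gm15353 had 1.32 (SE 0.29), with edgeR adjusted p-values of 0.0155 to 0.0309 over these genes.

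The next 3 protein-coding genes were picked from the higher ones after their values were seen, for their roles. Akr1b3 encodes aldose reductase, which reduces glucose and aldehydes. Akr1b3 measured 9.10, 7.79, 3.64, 11.2 and 20.7 CPM in saline embryos, against 23.4 to 29.97 CPM (median 26.5) in EtOH embryos. No saline embryo reached the lowest EtOH embryo. Its log2 fold change was 1.26 (SE 0.27, edgeR adjusted p = 0.0317). Aldh1b1 encodes a mitochondrial aldehyde dehydrogenase. Aldh1b1 stood at 24.1, 25.98, 30.5, 26.6 and 47.7 CPM in the saline embryos and at 39.4 to 70.8 CPM (median 58.9) in the EtOH embryos. The other saline embryos lay well below S2-4, which fell within the EtOH range. The log2 fold change of Aldh1b1 was 0.81 (SE 0.18, edgeR adjusted p = 0.0376). Dbn1 encodes drebrin, which binds actin filaments in growth cones and spines. Saline embryos had 117, 139, 148, 161 and 213 CPM of Dbn1, and EtOH embryos 193 to 240.2 CPM (median 214). S2-4 lay inside the EtOH range and the other 4 below it. Dbn1 had a log2 fold change of 0.45 (SE 0.11, edgeR adjusted p = 0.0463).

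Neurod2, at chr11:98325415-98329648 on the minus strand of GRCm38, was the only lower gene whose level was highest in Cluster 9 of all clusters. The level of Neurod2 was 321, 416, 434, 406 and 239 CPM in saline and 214 to 273 CPM (median 234) in EtOH embryos. S2-4 was within the EtOH range and the other 4 saline embryos lay above all EtOH embryos. For Neurod2 the log2 fold change came to -0.64 (SE 0.14, edgeR adjusted p = 0.0445). With batch in the fit the edgeR adjusted p was 0.0717, and without S2-4 it was 4.16e-07. Leaving out any other single embryo lost the call of Neurod2. On thinned nuclei, Neurod2 was found in 48.7% ± 11.1 of saline and 35.1% ± 2.42 of EtOH Cluster 9 nuclei, against 3.88% and 3.86% in Cluster 7. In the same embryos, the log2 fold change of Neurod2 was -0.69 (SE 0.16, edgeR adjusted p = 0.0433) in Cluster 1 and -0.36 (SE 0.12, adjusted p = 0.120) in Cluster 6. The other 2 identity markers were not called. For Unc5d, the saline values were 10153, 10064, 5695, 6272 and 9407 CPM, and the EtOH values ran from 9028 to 10688 CPM with a median of 9919. S2-1 and S2-2 were lower than all others and the remaining saline embryos overlapped the EtOH embryos. EdgeR gave Unc5d a log2 fold change of 0.21 (SE 0.16, adjusted p = 0.508). Mfap4 had a log2 fold change of -0.18 (SE 0.19, edgeR adjusted p = 0.644).

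Among the 73 lower genes, 36 had groups that did not overlap (83 of 9138 genes did so downward, 0.908%). In 39 of them (53.4%, against 5.29% of all genes tested) the level in Cluster 9 was under 10% of that in the cluster where the gene was highest, and no higher gene was in that class. Their median annotated length was 243147 bp, against 16607 bp for the higher genes and 34691 bp for all genes tested. Zeb1, a zinc finger factor of progenitors, had the smallest adjusted p. Values of Zeb1 were 171, 183, 186, 176 and 137 CPM in saline embryos and lay between 89.9 and 124 CPM (median 107) in EtOH embryos. All saline embryos lay above all EtOH embryos. Its log2 fold change was -0.72 (SE 0.10, edgeR adjusted p = 0.00597). Kctd8 encodes an auxiliary subunit of GABA-B receptors. Kctd8 measured 30.5, 22.9, 35.6, 37.8 and 21.6 CPM in saline embryos, against 3.15 to 13.1 CPM (median 11.7) in EtOH embryos. The groups were apart, with E2-3 the lowest embryo. The log2 fold change of Kctd8 was -1.61 (SE 0.25, edgeR adjusted p = 0.00923). Qk, which encodes an RNA-binding splicing factor abundant in progenitors, followed. Qk stood at 328, 284, 338, 279 and 236 CPM in the saline embryos and at 159 to 216 CPM (median 204) in the EtOH embryos. The groups were apart and S2-4 was the lowest saline embryo. Qk had a log2 fold change of -0.59 (SE 0.10, edgeR adjusted p = 0.0111).

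Another 3 transcription factor genes were called lower in every fit that left out an embryo, as were Zeb1, Kctd8 and Qk. Sox6, a SoxD factor of progenitors and interneurons, is at 11.1% of its highest cluster level in Cluster 9. Saline embryos had 482, 482, 483, 559 and 374 CPM of Sox6, and EtOH embryos 265 to 385 CPM (median 303). Only S2-4 overlapped the EtOH embryos. For Sox6 the log2 fold change came to -0.63 (SE 0.10, edgeR adjusted p = 0.0111). Tox3, an HMG-box gene, was apart between the groups. The level of Tox3 was 87.8, 81.1, 115, 123 and 55.8 CPM in saline and 26.7 to 46.9 CPM (median 37.5) in EtOH embryos. S2-4 was the saline embryo closest to EtOH. EdgeR gave Tox3 a log2 fold change of -1.29 (SE 0.20, adjusted p = 0.0111). Ebf1, an early B-cell factor family gene, reached 1.21% of its level in the striatal Cluster 11, where it was highest. For Ebf1, the saline values were 208, 161, 244, 227 and 148 CPM, and the EtOH values ran from 93.6 to 135 CPM with a median of 109. The lowest saline embryo stood above the highest EtOH embryo. Its log2 fold change was -0.85 (SE 0.14, edgeR adjusted p = 0.0116). The other lower genes among the 10 with the smallest adjusted p were Lhfpl3 (log2 fold change -1.58, SE 0.25), Eya4 (-1.76, SE 0.33), Samd12 (-0.64, SE 0.12) and C230004F18Rik (-1.14, SE 0.21), with edgeR adjusted p-values of 0.0111 to 0.0155. Asic2, an acid-sensing ion channel gene, was tied with the last 3 of these at an edgeR adjusted p of 0.0155 (log2 fold change -1.91, SE 0.34).

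**Figure D4:**
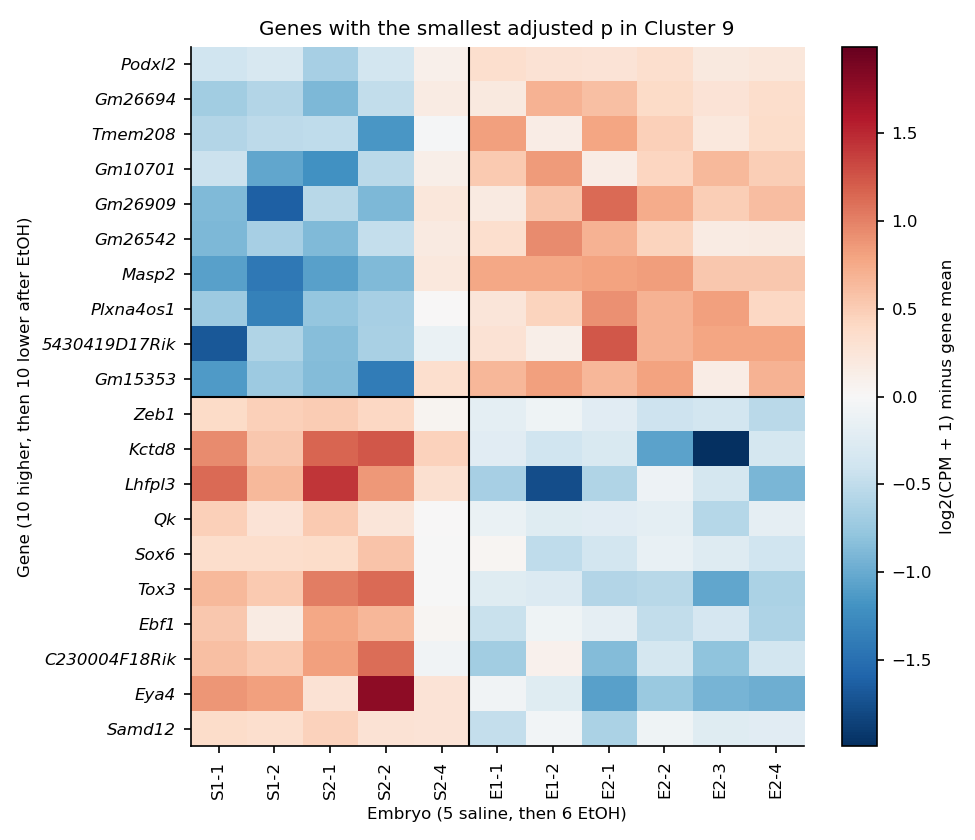
Log2(CPM + 1) minus the mean of each gene over the 11 embryos (colour) for the 10 higher and 10 lower genes with the smallest adjusted p (rows) in each embryo (columns, 5 saline left of the line and 6 EtOH right of it). The first 4 saline embryos differ from the EtOH embryos in every row, and S2-4 lies between them for Podxl2 (310.4 CPM) and Zeb1 (137 CPM), for example.

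Gene lists by role showed few calls with all 11 embryos and more without S2-4. Of all genes tested, 0.471% were higher and 0.799% lower with all embryos, and 7.8% and 5.86% without S2-4. None of the study's 20 early projection neuron genes was called with or without S2-4, with a median log2 fold change of 0.03 beside 0.01 for all genes tested. Nrp1, which is also among the radial migration genes with the highest levels, is an example. Values of Nrp1 were 1736, 1808, 1172, 1179 and 1717 CPM in saline embryos and lay between 1737 and 2179 CPM (median 1846) in EtOH embryos. S2-1 and S2-2 were the lowest, and the other saline embryos lay at the lower end of the EtOH range or just under it. The log2 fold change of Nrp1 was 0.28 (SE 0.13, edgeR adjusted p = 0.228). Nrg1, which encodes an Erbb ligand, and Ptprk, a receptor phosphatase gene, were also low in those littermates. Nrg1 stood at 9035 and 7742 CPM in S2-1 and S2-2 against 12875 ± 2331 CPM over all 11 embryos. Ptprk stood at 964 and 808 CPM there against 1577 ± 385 CPM.

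Of the factors shared by newborn projection neurons, 19 were tested and Neurod2 alone was called (median log2 fold change 0.02), against 4 lower without S2-4. None of 14 callosal and upper-layer genes (median 0.07) and none of 16 intermediate progenitor genes (median -0.03) was called. Without S2-4, 1 callosal and upper-layer gene was lower, and 1 intermediate progenitor gene was higher and 1 lower. Of 13 subcortical and deep-layer genes (median -0.22), Hs3st4, a heparan sulfate sulfotransferase gene of deep-layer neurons, fell. Hs3st4 stood at 78.7, 56.1, 51.6, 44.7 and 29.2 CPM in the saline embryos and at 7.87 to 26.9 CPM (median 16.2) in the EtOH embryos. The groups were apart, S2-4 being the lowest saline embryo. For Hs3st4 the log2 fold change came to -1.68 (SE 0.34, edgeR adjusted p = 0.0401). Without S2-4, 2 of the 13 were lower and 1 higher. None of 24 radial migration genes was called (median -0.04), against 1 higher and 3 lower without S2-4. Of 29 axon guidance genes (median -0.10), 1 fell with all embryos and 5 without S2-4. The former was Slit1, which encodes a repellent ligand of Robo receptors. Saline embryos had 17.9, 23.9, 34.2, 28.7 and 19.3 CPM of Slit1, and EtOH embryos 5.63 to 15.5 CPM (median 9.30). Every saline embryo was above every EtOH embryo. EdgeR gave Slit1 a log2 fold change of -1.30 (SE 0.26, adjusted p = 0.0242). Of 33 cell adhesion genes (median -0.22), 10 were lower and 1 higher without S2-4. With all embryos Pcdh15 alone fell, with a log2 fold change of -1.19 (SE 0.25, edgeR adjusted p = 0.0486). Pcdh15 in Cluster 9 was at 5.65% of its level in the interneuron Cluster 7.

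Of 43 synapse and transmission genes (median -0.13), 4 fell and none rose, against 14 lower and none higher without S2-4. Among the 4, the kainate receptor subunit genes Grik1 and Grik2 fell with log2 fold changes of -2.23 (SE 0.42, edgeR adjusted p = 0.0309) and -0.46 (SE 0.10, adjusted p = 0.0376). Grik1 was at 1.04% of its highest cluster level in Cluster 9, and Grik2 at 56.2%. For Grik2, the saline values were 2927, 3032, 3489.5, 4392 and 2539.6 CPM, and the EtOH values ran from 2233 to 2573 CPM with a median of 2439. S2-4 overlapped the EtOH embryos and the other saline embryos did not. Grin2b, an NMDA receptor subunit gene, fell with a log2 fold change of -0.95 (SE 0.21, adjusted p = 0.0463).

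Of 13 neurotrophic and growth signal genes (median -0.30), Erbb4, the neuregulin receptor gene of interneurons, and Fgf12, a sodium channel regulator gene, fell. Without S2-4, 6 of the 13 were lower and 2 higher. Values of Erbb4 were 565, 445, 659.7, 395 and 177 CPM in saline embryos and lay between 70.8 and 142 CPM (median 105) in EtOH embryos. The saline embryos all lay above the EtOH embryos, S2-4 by the least. The log2 fold change of Erbb4 was -2.04 (SE 0.35, edgeR adjusted p = 0.0376). Fgf12 had a log2 fold change of -0.78 (SE 0.17, adjusted p = 0.0433 in edgeR). Among 11 proliferation genes (median -0.63), the mitotic kinesin gene Kif11 (-1.27, SE 0.30, edgeR adjusted p = 0.0435) and the formin gene Diaph3 (-1.33, SE 0.31, adjusted p = 0.0486) fell. Without S2-4, 5 of the 11 were lower and 1 higher. Both kinesin and formin genes were at low levels, with Kif11 at 12.5 to 18.9 CPM in saline and 3.15 to 13.2 CPM in EtOH embryos. With all embryos no call was made among 24 ion channel genes (median -0.15), 23 Wnt genes (median -0.03), 6 stress and immediate early genes (median 0.00) and 3 alcohol metabolism genes (median -0.11). Without S2-4, 5 ion channel genes were lower, 2 Wnt genes were higher and 1 lower, and the stress and alcohol metabolism lists held no call. Only 3 of the 10 genes of the alcohol metabolism list were tested, and Aldh1b1, called higher with all embryos, is not on it. None of the 5 tested genes that the study repeats across clusters was called, with a median of -1.19, and 3 were lower without S2-4. The study reported some of its repeated genes as higher after EtOH and others as lower. The median and the summed level pool them without regard to those directions, so neither compares directions with the study. The study chose those genes on these embryos, and their summed level was 254 to 323 CPM in 4 saline embryos, 108 CPM in S2-4 and 61.9 to 122 CPM in EtOH embryos. Of 66 ribosomal protein genes tested, 0 were called and 60 had a log2 fold change above 0 (median 0.41), as had 4688 of all 9138 genes tested. Without S2-4, 13 of them were higher and none lower (median 0.54). Their summed level was 889, 774, 1092, 1587 and 1477 CPM in saline and 1380 to 1626 CPM in EtOH embryos, so S2-2 and S2-4 lay within the EtOH range.

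Of the genes of other cell types, the summed interneuron and Cajal-Retzius levels in Cluster 9 did not overlap between treatments, while the radial glia, thalamic and non-neuronal sums did. Of 14 interneuron genes 5 passed the filter on low counts, all 5 had log2 fold changes below 0 (median -1.61), and Erbb4 alone fell, whereas all 5 were lower without S2-4 (median -1.83). The summed level of the 14 genes in Cluster 9 was 911, 693, 1110, 694 and 325 CPM in saline and 123 to 280 CPM (median 233) in EtOH embryos. The groups did not overlap, and S2-4 was nearest to the EtOH embryos. The same sum was 361 to 1461 CPM in saline and 222 to 549 CPM in EtOH embryos in Cluster 6, and 294 to 924 and 167 to 337 CPM in Cluster 1. None of the 14 genes was at 0 in all embryos. Gad2, which encodes a GABA synthesis enzyme, was found on thinned nuclei in 9.60% ± 4.96 of saline and 2.75% ± 1.18 of EtOH Cluster 9 nuclei, against 50.7% ± 10.1 of interneuron Cluster 7 nuclei over all embryos. Before thinning the pooled shares were 16.9% and 69.7%. With all embryos Gad2 was not called, at a log2 fold change of -1.47 (SE 0.44, edgeR adjusted p = 0.110), nor was Nxph1, an interneuron neurexophilin gene, at -1.61 (SE 0.39, adjusted p = 0.0750), both chosen after their values were seen. Without S2-4, the saline embryo most like EtOH, their edgeR adjusted p-values were 0.0168 for Gad2 and 0.000413 for Nxph1, which is not independent support. The part of interneuron RNA in the Cluster 9 results was not tested.

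Of 15 radial glia genes 9 were tested, with a median log2 fold change of -0.61, and Gli3, a Hedgehog pathway factor, and Slc1a3, the astroglial glutamate transporter gene, fell. Gli3 measured 124, 136, 156, 173 and 91.8 CPM in saline embryos, against 63.4 to 101 CPM (median 82.6) in EtOH embryos. S2-4 overlapped the EtOH embryos and the other saline embryos did not. Gli3 had a log2 fold change of -0.75 (SE 0.15, edgeR adjusted p = 0.0295). Slc1a3 had a log2 fold change of -1.005 (SE 0.22, edgeR adjusted p = 0.0322). Without S2-4, 4 of the 9 were lower. The summed level of the 15 genes was 647, 571, 677, 720 and 475 CPM in saline and 378 to 506 CPM in EtOH embryos in Cluster 9. In Clusters 6 and 1 the sums overlapped, with 1401 to 1540 against 1321 to 1667 CPM and 779 to 1079 against 939 to 1108 CPM. Of 8 Cajal-Retzius genes 2 were tested and Reln, the gene of the secreted guidance protein of those cells, fell. Reln stood at 224, 248, 383, 405 and 241 CPM in the saline embryos and at 138 to 200.01 CPM (median 165) in the EtOH embryos. The groups did not overlap. For Reln the log2 fold change came to -0.85 (SE 0.17, edgeR adjusted p = 0.0376). The summed level of the 8 genes was 250 to 438 CPM in saline and 153 to 222 CPM in EtOH embryos. Reln made up most of that sum, with means of 300 of 325 CPM in saline and 168 of 182 CPM in EtOH embryos. In Cluster 6 the sum was 226 to 581 CPM in saline and 177 to 281 CPM in EtOH embryos, and in Cluster 1 178 to 450 and 99.8 to 218 CPM. Of the saline embryos, only S2-4 overlapped the EtOH embryos there. None of 5 thalamic genes (median -0.59) and of 1 non-neuronal gene tested, Cxcl12, was called with all embryos, and 1 thalamic gene was lower without S2-4. Cxcl12 was itself highest in Cluster 9 of all clusters, at 33.7 ± 12.4 CPM against 23.1 ± 5.79 CPM in Cluster 6. The thalamic sum was 305 to 532 CPM in saline and 302 to 407 CPM in EtOH embryos, and the non-neuronal one 39.5 to 78.3 and 45.0 to 77.4 CPM.

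**Figure D5:**
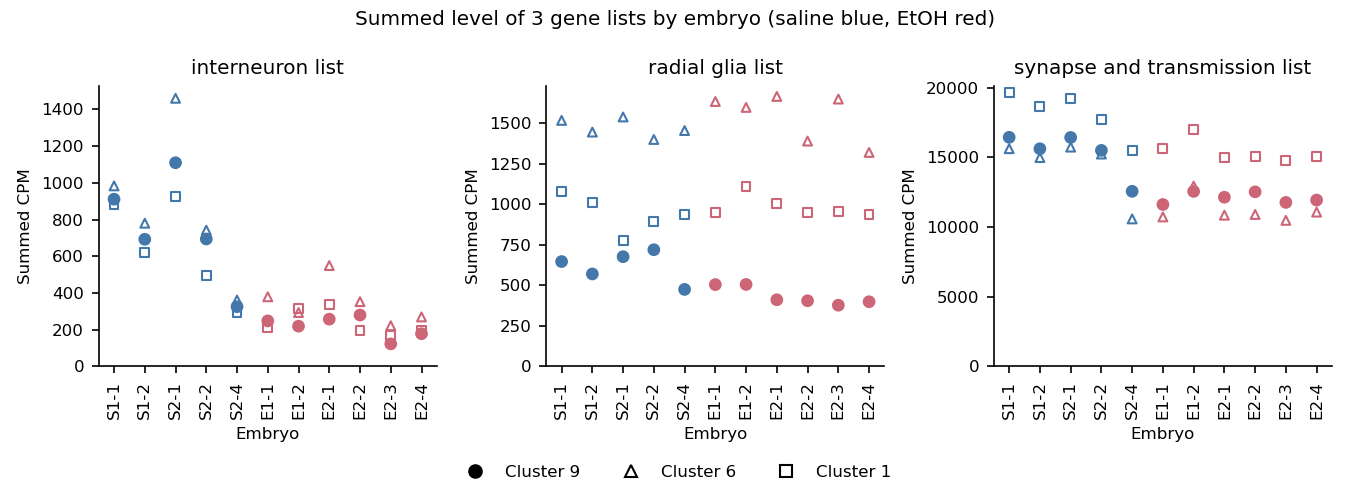
Summed CPM of the interneuron, radial glia and synapse lists (vertical axes, from 0) per embryo (horizontal axes), with filled circles for Cluster 9, triangles for Cluster 6 and squares for Cluster 1, saline in blue and EtOH in red. The interneuron and synapse sums are higher in the first 4 saline embryos in all 3 clusters, whereas the radial glia sum is so in Cluster 9 (571 to 720 against 378 to 506 CPM) and overlaps in Clusters 6 and 1.

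The EtOH effect in Cluster 9 was then tested against that in its neighbours, in the same embryos. On their own, edgeR called 1 higher (0.00927%) and 0 lower genes of 10785 in Cluster 6, with 1260 and 1032 at an unadjusted p under 0.05, and 169 higher (1.57%) and 182 lower (1.69%) of 10769 in Cluster 1. Against Cluster 6, 8 of 10335 genes differed (0.0774%), all with the more negative effect in Cluster 9. Gli3 and Slit1 shared the smallest adjusted p. Gli3, whose log2 fold change was -0.75 (SE 0.15) in Cluster 9 and -0.05 (SE 0.09) in Cluster 6, differed by -0.68 (SE 0.11, edgeR adjusted p = 0.00397). Slit1 differed by -1.31 (SE 0.22, adjusted p = 0.00397) and Adgrv1, an adhesion receptor gene, by -1.53 (SE 0.22, adjusted p = 0.0112). Zeb1 differed by -0.51 (SE 0.10, adjusted p = 0.0162) and Tox3 by -1.18 (SE 0.20, adjusted p = 0.0494). Prkd1, a kinase gene, differed by -0.66 (SE 0.13, adjusted p = 0.0285), Hells, a chromatin remodeler of dividing cells, by -1.20 (SE 0.25, adjusted p = 0.0373), and Tmem132b by -1.09 (SE 0.23, adjusted p = 0.0492). All 8 genes were higher in Cluster 6 than in Cluster 9, for example Zeb1 at 703 ± 109.8 against 136 ± 36.6 CPM (n = 11). Without S2-4 the count was 48, and leaving out other embryos gave 2 to 10.

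Against Cluster 1, 1 of 10673 genes differed (0.00937%). This was Trps1, which encodes a GATA-type repressor and had a log2 fold change of -0.10 (SE 0.08) in Cluster 9 and -0.78 (SE 0.09) in Cluster 1, a difference of 0.61 (SE 0.09, edgeR adjusted p = 0.00163). Saline embryos had 290.4, 240.1, 252, 301 and 246 CPM of Trps1, and EtOH embryos 225 to 288 CPM (median 247). The groups overlapped in Cluster 9. Without S2-4 the count was 40, and without any other embryo 1 to 6. At an unadjusted p under 0.05, 677 genes differed from Cluster 6 and 682 from Cluster 1. The genes called in Cluster 9 had median log2 fold changes of 0.67 and 0.63 (higher genes) and -0.42 and -0.51 (lower genes) in Clusters 6 and 1, beside 1.07 and -0.89 in Cluster 9, where they were chosen.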

How the data were processed

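Nuclei from the cortices of 11 embryos were profiled by snRNAseq, and Cluster 9 was taken as the authors assigned it. The authors aligned reads with Cell Ranger at default settings to mm10, filtered nuclei by depth and by their mitochondrial, ribosomal and hemoglobin content, clustered them in Seurat after SCTransform and Harmony, removed some clusters and genes, and deposited raw UMI counts in 275 tables, 1 per embryo and cluster, with 23513 genes each. Another saline sample, S2-3, had labels but no counts in those tables. The paper states that 1 saline sample was removed because its spread of cells over the clusters consistently differed from the rest. The saline embryos compared here are those left after that removal, which bears on the shares of nuclei. The strand rule of the counting is not stated beyond the default Cell Ranger settings, and doublets were not called here.

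Counts were summed per embryo and tested with edgeR 4.0.16 (quasi-likelihood with robust fitting, TMM, filterByExpr) in R 4.3.3, with DESeq2 1.42.0 and limma 3.58.1 (voom, dam as a random block) as alternatives, each tested on simulated data. Calls needed a Benjamini-Hochberg adjusted p under 0.05 and a rise of over 25% or a fall of over 20%, as in the study. CPM values are counts over the embryo's Cluster 9 total without TMM factors, and errors given as ± are SDs between embryos. The SE of an edgeR log2 fold change was derived from its F statistic, as the absolute log2 fold change over the square root of F. Embryo-level values were compared by two-sided exact permutation tests, computed with NumPy 2.4.6. Differences of EtOH effects between clusters were tested in 1 fit of both clusters with the embryo as a term. Pairs of littermate libraries differed by more than sampling noise (chi-square per gene 1.58 to 7.56, where repeated draws give 1). Genes were matched to GENCODE M21 on GRCm38 (98.2% of names). Ribosomal protein genes were found by symbol, without the Rps6k kinases that the same rule took in. The alternatives covered normalization, filters, tool, batch, dam, depth, fold limit, denominators and each embryo left out.

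The text names the identity markers, up to 10 genes per direction by adjusted p, the called members of each list, and genes said to be chosen after their values were seen, as were the other genes named for their levels or shares of nuclei. The rule also allowed up to 4 members with the highest level from a list with no call. Of these, Unc5d, Ccser1, Robo2, Nrg1, Plxna4, Ptprk, Nrp1 and Cxcl12 are named, and the other such members are covered by the counts of their lists. The members, lists and tests were chosen with earlier results of these data known. Results for a few genes are not reported here.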

Additional observations from a re-analysis of the deposited data

Results flagged for a closer look

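Within a group of 5 or 6 embryos, an extreme embryo was singled out when its gap to the nearest other embryo exceeded 0.710 of the range for 5 embryos or 0.625 for 6 (Dixon's limits, which chance passes in about 1 in 20 groups). Of 130 groups examined, 11 passed. S2-4 did so among the saline embryos in 3, with 47.7 CPM of Aldh1b1 (the others 24.1 to 30.5), 14.8 CPM of Diaph3 (33.5 to 39.2) and a sum of 12568 CPM over the synapse list (15504 to 16444). S2-2 did so in 3, with sums of 2300.3 CPM over the intermediate progenitor list (1863 to 1961), 345 CPM over the proliferation list (202 to 241) and 78.3 CPM over the non-neuronal list (39.5 to 49.5). Among the EtOH embryos, E2-3 had 159 CPM of Qk (199 to 216). E1-2 had sums of 71794 CPM over the study's early projection neuron genes (75507 to 77580) and 47670.3 CPM over the axon guidance list (51790.2 to 53675). E2-1 had 4.47% of its nuclei in Cluster 9 (5.003 to 5.29%) and 76.5 CPM over the alcohol metabolism list (52.6 to 60.96).

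The EtOH effect differed between Clusters 9 and 6 by its own test for 8 genes, with differences in log2 fold change (Cluster 9 minus Cluster 6) of -0.68 for Gli3, -1.31 for Slit1, -1.53 for Adgrv1, -0.51 for Zeb1, -0.66 for Prkd1, -1.20 for Hells, -1.09 for Tmem132b and -1.18 for Tox3. Between Clusters 9 and 1 it differed for Trps1, by 0.61.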

How the results depend on the processing

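The counts of called genes depended on the processing. Against 43 higher and 73 lower genes, no filter on low counts gave 263 and 502, DESeq2 135 and 200, batch as a covariate 12 and 33, batch 1 embryos alone 292 and 179, batch 2 embryos alone 0 and 0, and limma voom, with a random dam effect, 92 and 39. The fits of a single batch hold a single dam per treatment and cannot tell treatment from dam. Thinned nuclei gave 25 higher genes. Leaving out 1 embryo gave 1 to 700 higher and 7 to 526 lower genes, the highest counts both without S2-4. RLE size factors (41 and 76), counts summed per dam (51 and 99), no fold limit (44 and 73) and, chosen after seeing the data, embryos thinned to 1 total (56 and 68) stayed within 1.5 times in number. Of the 116 called genes, DESeq2 called 115, RLE size factors 114, limma voom 79, counts summed per dam 61, embryos thinned to 1 total 52, the fit with batch 43 and thinned nuclei 37. The voom fit estimated a dam correlation of -0.0008, so it still took littermates as nearly independent. The difference in the share of nuclei turned to -2.06 points of projection neurons, -1.15 points of intermediate progenitors and projection neurons, and ran from -0.038 (without S2-1) to 0.67 points over embryos left out. It was 0.33 points over dam means (exact permutation p = 0.333, the smallest 4 dams allow). The difference in depth kept its direction and call, but median genes after thinning differed by only -11.1. Genes that differed from Cluster 6 numbered 85 without the filter on low counts and 2 to 48 over embryos left out, and from Cluster 1 they numbered 67 and 1 to 40. Of the values of named genes under alternatives, 1474 kept their side of the threshold, 355 lost a call, 44 gained one and 0 reversed a called direction. The cause of these moves was not tested. Many of those genes were named for their calls in these same embryos, and the alternatives refit the same counts. Reversals were thus unlikely in advance, and their absence is no support for the directions. No paired analysis was possible because the embryo numbers name littermates of 1 dam and do not match single embryos between treatments. The batches that dams of both treatments share entered as a covariate and in the permutations within batches. The shallowest embryo had 532801 UMIs in Cluster 9, which limits the precision of genes with few counts.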
